A study of Mus musculus with 147 samples.

Results

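The genes described here are 10 cyclic nucleotide phosphodiesterases, *Pde1a*, *Pde1c*, *Pde3a*, *Pde3b*, *Pde4a*, *Pde4b*, *Pde4d*, *Pde5a*, *Pde8a* and *Pde10a*, chosen by symbol from the 35438 genes of the WT and null count tables. Single YFP-positive kidney cells of C57BL/6 mice were sorted, captured with the Fluidigm C1 System, in which each well holds 1 cell by design, and sequenced with SMART-Seq v4. WT renin cells (51 wells) came from *Ren1c*+/+ *Ren1c*-YFP mice, and Reninnull cells (96 wells) came from *Ren1c*-/- *Ren1c*-YFP mice (*Ren1c*-KO), whose wells carry the names YFP1 and YFP2 in the labels, with 48 wells each. The question was how the phosphodiesterase profile of a renin cell compares with that of a cell that lacks the renin gene.

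Mice of both genotypes were adults of both sexes and carried the *Ren1c*-YFP transgene, in which the 5′ regulatory sequence of *Ren1c* drives YFP, so that a cell was collected only where that sequence was active. The null mice had received saline injections after birth, which cannot be told apart from the genotype here. According to the methods, several mice of each genotype were used, with 1 capture for WT and more than 1 for null mice, but no label ties a well to a mouse or a capture. Each genotype was therefore 1 sample, no test between genotypes was possible, and genotype, capture and library cannot be told apart. Wells are not replicates. Values are counts scaled to a total of 1000000 (CPM), summed over wells, and differences are log2 ratios of summed CPM, Reninnull over WT, with exact intervals at a level of 95% that cover counting error only.

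Phosphodiesterases end the signals of cAMP and cGMP by hydrolysing them. In renin cells, cAMP acts through protein kinase A and CREB to maintain renin transcription and release, so the enzymes that remove cAMP set how long that signal lasts. The enzymes differ in what they cleave and what controls them: PDE4 and PDE8 are specific for cAMP, PDE5 is specific for cGMP, PDE3 cleaves cAMP and is inhibited by cGMP, PDE1 cleaves both nucleotides once calcium and calmodulin bind, and PDE10A cleaves both. Blocking PDE3 or PDE4 is known to raise renin release.

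Because CREB binds the cAMP response element, TGACGTCA, and its shorter form, TGACG, the promoters of these genes were searched for both sequences, each on both strands. RefSeq promoters (GRCm38.p6, 250 bases before to 50 bases after a start) were found for 8 of the 10 genes, with 19 start sites among them, and *Pde3a* and *Pde3b* had none. The full element was in 0 of the 19 promoters and in 1.79% of all 32851 promoters. The shorter form was in 4 of 19 (21.1%), against 20.8% of all promoters, which is the share of the background. The 4 windows that held it are shown 5′ to 3′ on the strand of the gene, with TGACG, or CGTCA where it lies on the other strand, in capitals and 45 bases on each side.
Pde1a (chr2:80039019-80039113, - strand): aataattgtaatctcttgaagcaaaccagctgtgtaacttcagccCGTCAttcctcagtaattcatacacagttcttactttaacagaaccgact
Pde4a (chr9:21184006-21184100, + strand): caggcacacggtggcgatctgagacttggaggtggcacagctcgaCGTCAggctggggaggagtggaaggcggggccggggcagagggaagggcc
Pde4b (chr4:102421476-102421570, + strand): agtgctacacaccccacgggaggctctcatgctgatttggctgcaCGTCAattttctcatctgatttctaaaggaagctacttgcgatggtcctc
Pde8a (chr7:81213136-81213230, + strand): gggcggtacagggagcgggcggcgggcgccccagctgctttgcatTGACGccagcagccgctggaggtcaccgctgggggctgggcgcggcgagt
The capitals lay 166 bases before a RefSeq start of *Pde1a*, 50 before one of *Pde4a*, 34 before one of *Pde4b* and 84 before one of *Pde8a*. A gene can have several such starts, and these are not the ends of the gene spans given below. A match of letters is a description and not a binding site.

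*Ren1*, the deleted gene, was checked first. Its level was 96023 CPM in WT wells, where each of the 51 wells had a count, and 0.135 CPM in Reninnull wells, where 16 of 96 had one. *Akr1b7* (4528 and 2011 CPM) and *Rgs5* (11102 and 14156 CPM), further markers of renin cells, were read in both genotypes. The other markers of that list were less even. *Gja5* (39.1 and 43.1 CPM) reached 10 CPM in 33 of 51 WT and 7 of 96 Reninnull wells, and 1 well held 95.8% of its null counts. Its log2 ratio was -5.55 in YFP1 and 1.00 in YFP2. *Cacna1h* (10.3 and 7.33 CPM) had -3.01 and 0.27, and *Gja4* (105 and 124 CPM) had -0.64 and 0.70. The smooth muscle list summed to 11021 CPM in WT and 12210.2 CPM in Reninnull wells, but its median over wells was 364 CPM in WT and 5675 CPM in Reninnull wells.

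The depth was uneven. WT wells held 26401 to 17124854 counts (median 1525972) and Reninnull wells held 3628 to 14505243 (median 4107950). The median share of mitochondrial counts was 60.4% in WT and 12.4% in Reninnull wells. A stricter set of wells, called the better wells here, had 100000 counts or more, 1000 genes or more and a mitochondrial share of up to 25%, and it held 15 WT and 57 Reninnull wells. A total of 4 pairs of Reninnull wells were near-identical (correlation of 0.974 to 0.987, with the next pair at 0.896), and counting each pair once left 92 wells. The pairs of wells 45 and 93, 46 and 94, and 47 and 95 each join a YFP1 well with a YFP2 well. YFP1 and YFP2 are therefore not fully separate sets. In WT, a phosphodiesterase count was more frequent in wells that shared a sequencing index with the well richest in that gene: for *Pde1a* in 12 of 14 such wells (85.7%) and in 16 of 36 that shared none (44.4%), and for *Pde4b* in 15 of 15 and 29 of 35 (82.9%). The low counts of WT wells are therefore reported also with a limit of 10 CPM.

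Markers of other kidney cells were also uneven. The summed proximal tubule list was at 60 CPM in WT, with *Slc5a2* at 0, and at 923 CPM in Reninnull wells. The podocyte list had 98.8 CPM in WT, where *Podxl* was at 0, and 639 CPM in Reninnull wells, with *Synpo* highest in both. The fibroblast list was at 171 and 625 CPM, with *Col1a2* highest and *Dpt* at 0 in both. Endothelial markers were at 186 CPM in WT (*Ehd3* highest, *Cdh5* at 0) and 297 CPM in Reninnull wells (*Emcn* highest), loop and distal tubule markers at 0.515 and 109 CPM, collecting duct markers at 13.4 and 36.2 CPM, leukocyte markers at 0.925 and 5.92 CPM, and pericyte and mesangial markers at 1839 and 1556 CPM. Over 5000 CPM of tubule, podocyte, endothelial or leukocyte markers was found in 0 WT and 10 Reninnull wells, and without these 10 wells the log2 ratio was 2.00 for *Pde1a*, -0.43 for *Pde3a*, 0.76 for *Pde4b*, 0.60 for *Pde5a* and 1.59 for *Pde10a*.

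In both genotypes 3 genes held most counts of the 10 genes. *Pde4b*, *Pde3a* and *Pde1a* together made up 97.8% of the counts of the 10 genes in WT and 91% in Reninnull cells. *Pde4b* had 47.5% in WT and 47.6% in Reninnull cells. *Pde3a* had 41.6% in WT and 19.3% in Reninnull cells, and *Pde1a* had 8.72% and 24%. The remaining 7 genes made up 2.2% of the counts in WT and 8.98% in Reninnull cells.

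Shares of counts favour long transcripts, and the coding transcripts of *Pde3a* are several times longer than those of *Pde4b* (12302 and 2358 bases). Divided by length, *Pde4b* held 72.9% in WT and 59.1% in Reninnull cells, *Pde1a* held 12.8% and 28.6%, and *Pde3a* held 12.2% and 4.6%. By what they cleave, the cAMP-specific genes (*Pde4a*, *Pde4b*, *Pde4d*, *Pde8a*) had 47.8% of the counts in WT and 52.4% in Reninnull cells, but 73.3% and 64% per length, so that no direction can be given for their share. The cGMP-specific *Pde5a* had 0.69% and 0.599% of the counts. The counts of the 10 genes summed to 913 CPM in WT and 1420.3 CPM in Reninnull cells (1428 in YFP1 and 1414 in YFP2), and those of the 15 other phosphodiesterase genes to 87.9 and 244 CPM.

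**Figure D1:**
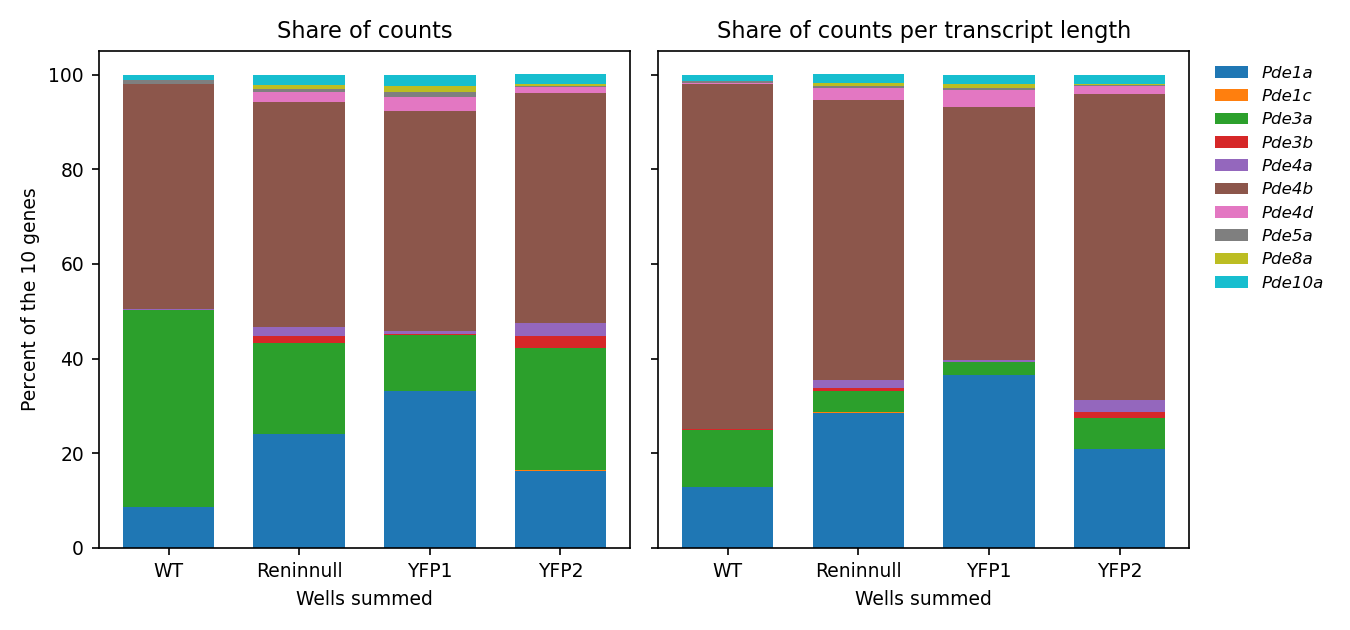
Share of each of the 10 phosphodiesterase genes, in percent of their total, in the summed wells of WT, Reninnull and the YFP1 and YFP2 wells of Reninnull alone, by counts (left) and by counts per transcript length (right). *Pde4b* is near 47.5% of counts in each bar, *Pde3a* is smaller and *Pde1a* larger in the Reninnull bars than in WT, and dividing by length shrinks *Pde3a* in each bar.

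The null wells named YFP1 and YFP2 differed from each other, by summed counts, in the genes that stand beside *Pde4b*. *Pde1a* had 33.2% of the counts in YFP1 and 16.3% in YFP2. *Pde3a* had 11.7% in YFP1 and 25.8% in YFP2. With each well weighted equally, by mean CPM, the shares were closer, at 24.9% and 19.1% for *Pde1a* and 25.9% and 26.6% for *Pde3a*. *Pde4b* led in both, at 46.6% and 48.6% of the summed counts and at 38.4% and 43.7% by mean CPM.

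Compared between genotypes, 7 of the 10 genes were at least 2-fold higher in Reninnull cells, 0 were at least 2-fold lower and 3 lay between. At the same limit, 52.4% of all 18720 genes with a ratio were higher and 18.5% were lower. The median log2 ratio was 3.14 for the 10 genes and 1.17 for all genes. Beside a share this high in all genes, a count of 7 says little about phosphodiesterases. With the TMM scaling factors of edgeR, which lower each log2 ratio by 0.70, 6 were higher (43.1% of all genes) and 1, *Pde3a*, was lower (27.2%), and the medians were 2.44 and 0.47.

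YFP1 and YFP2 were also set against WT one at a time, which uses the same WT wells for each. Against YFP1, 8 genes were higher (45.7% of all genes) and 1, *Pde3a*, was lower (27.4%). Against YFP2, 7 were higher (49.8%) and 0 lower (22.7%). The 7 genes were at least 2-fold higher in each of them, as were 33.3% of all genes, and 0 were lower in each, against 15.8%. In the better wells 7 were higher (51.6%) and 0 lower (20.1%). Among genes with a count in 20% of the wells of a genotype, which left 9 genes, 6 were higher (47%) and 0 lower (18.2%). *Pde3b*, *Pde4a*, *Pde4d*, *Pde8a* and *Pde10a* passed that filter through Reninnull wells alone, so it cannot check their ratios. With near-identical wells counted once 7 were higher (52.8%) and 0 lower (18.5%), and the log2 ratio was 0.70 for *Pde4b*, -0.49 for *Pde3a* and 2.17 for *Pde1a*. By the difference of mean log2(CPM + 1) over wells, which gives a gene absent from most wells a small value, 2 were higher (9.03% of all genes) and 0 lower (1.9%): *Pde1a* (1.18) and *Pde4b* (2.43).

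**Figure D2:**
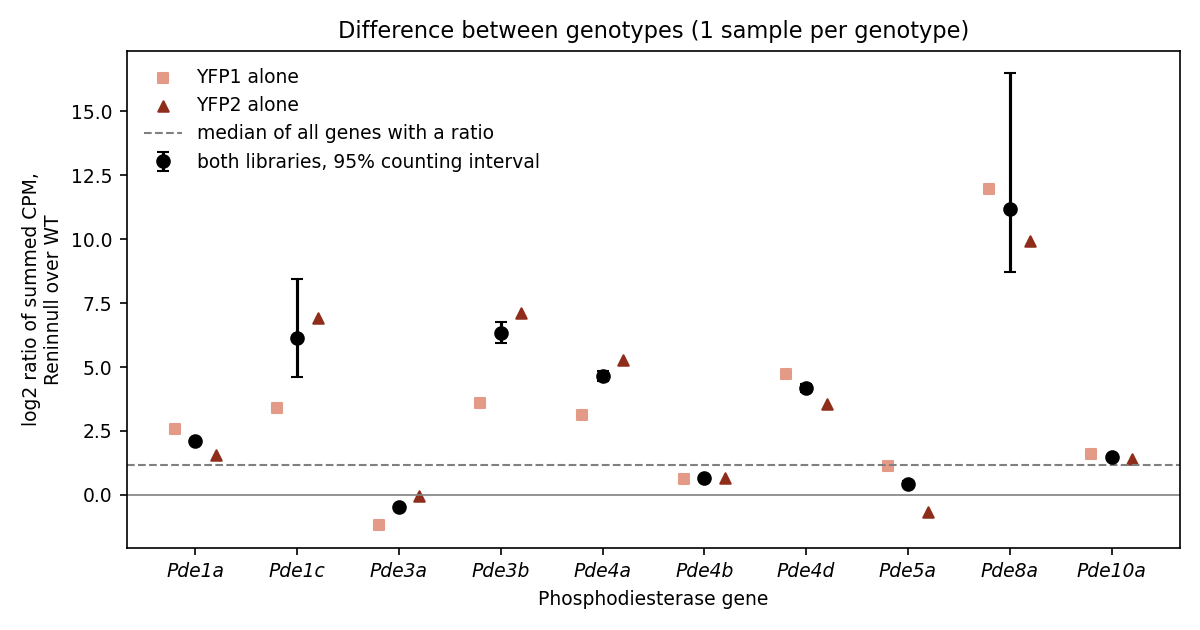
Log2 ratio of summed CPM, Reninnull over WT, for each phosphodiesterase gene. Circles are all wells with the counting interval, squares are YFP1 wells alone, triangles are YFP2 wells alone, and the dashed line is the median of all genes with a ratio (1.17). *Pde3a* lies below 0, *Pde4b* and *Pde5a* lie between 0 and the line (with TMM scaling both fall below 0, to -0.06 and -0.27), and the other 7 genes lie above the line.

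*Pde4b* (GRCm38 chromosome 4, 102087543 to 102607259, plus strand) encodes a cAMP-specific enzyme with short and long forms that differ in their amino-terminal parts. It ranged from 0 through a median of 5.24 to 4012 CPM in WT wells and from 0 through 81.9 to 7370.0 CPM in Reninnull wells. The ranges overlapped in full, but the middle of the null wells was much higher. The summed level of *Pde4b* was 433 CPM in WT and 677 CPM in Reninnull cells, a log2 ratio of 0.64 (0.63 to 0.65) that was 0.62 in YFP1 and 0.66 in YFP2, and that fell to -0.06 with TMM scaling, so that no direction can be given for the sums.

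A count of *Pde4b* was found in nearly the same share of wells, 45 of 51 WT (88.2%) and 87 of 96 Reninnull wells (90.6%), and the shares lay farther apart at higher limits. At least 10 CPM was found in 19 of 51 WT wells (37.3%, exact interval 24.1% to 51.9%) and 59 of 96 Reninnull wells (61.5%, 51% to 71.2%). At least 100 CPM was found in 5 WT (9.8%, 3.26% to 21.4%) and 44 Reninnull wells (45.8%, 35.6% to 56.3%). Few WT wells thus carried most of the WT counts: the 3 richest held 83.5% of them and the richest 36.2%. The richest well held 21.2% in the 96 pooled Reninnull wells, but 47.5% in YFP1 and 28.6% in YFP2, with 48 wells each. A higher concentration in WT can therefore not be read from these shares. After each well was thinned to 62000 counts, which left out 2 WT and 13 Reninnull wells, *Pde4b* was counted in 20 of 49 WT (40.8%) and 55 of 83 Reninnull wells (66.3%). Among the better wells the share at 10 CPM was 53.3% (8 of 15, 26.6% to 78.7%) in WT and 63.2% (36 of 57, 49.3% to 75.6%) in Reninnull cells. The shares lay closer together there, and the parts of depth, gene number and mitochondrial share, which differ at once between the better wells and the rest, were not tested.

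*Pde3a* (chromosome 6, 141249269 to 141507448, plus strand) encodes an enzyme that cleaves cAMP and that cGMP inhibits. WT wells ranged from 0 through a median of 8.01 to 4671 CPM, and Reninnull wells from 0 through 12.8 to 3936 CPM. These medians lay close together and the ranges overlapped, but the Reninnull median joins 3.2 CPM in YFP1 and 21.8 CPM in YFP2, on either side of WT. Summed, WT had 379.7 CPM and Reninnull cells 275 CPM, a log2 ratio of -0.47 (-0.48 to -0.45) that was -1.19 for YFP1, -0.06 for YFP2 and -1.17 with TMM scaling.

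The lower *Pde3a* sum of Reninnull cells was seen in YFP1 (167 CPM) and hardly in YFP2 (365 CPM, against 379.7 CPM in WT). It also depended on a few rich wells. The 3 richest wells held 68.6% of its counts in WT and 29.6% in the 96 pooled Reninnull wells. In YFP1 and YFP2, with 48 wells each, they held 47.8% and 40.9%. The mean of CPM over wells, which weights each well equally, gave a log2 ratio of 0.19. Without the richest well of each genotype it was -0.11. At least 10 CPM was found in 23 of 51 WT (45.1%, 31.1% to 59.7%) and 49 of 96 Reninnull wells (51%, 40.6% to 61.4%). *Pde3a* shares exon bases with a gene on the opposite strand, *Gm28523*, which is not in the count tables, and these libraries do not mark strand.

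*Pde3b* (chromosome 7, 114415281 to 114539251, plus strand), the related enzyme known from fat and liver cells, was rare. Its median was 0 CPM in both genotypes and its highest well reached 74.4 CPM in WT and 1058 CPM in Reninnull cells. The sum was 0.248 CPM (49 counts) and 20.2 CPM (8039 counts), a log2 ratio of 6.35 (5.94 to 6.78) that was 3.61 in YFP1, 7.12 in YFP2 and 3.11 for the mean of CPM over wells. A single Reninnull well, from YFP2, held 72.7% of its counts, and podocyte markers were at 3005 CPM and endothelial markers at 2009 CPM in that well. The 10 wells rich in markers of other kidney cells held 74.3% of the *Pde3b* counts (115 CPM, against 5.95 CPM in the remaining Reninnull wells), and without them the log2 ratio was 4.59. Whether those counts belong to renin lineage cells was not tested.

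*Pde1a* (chromosome 2, 79834453 to 80129458, minus strand) encodes a calcium- and calmodulin-dependent enzyme that prefers cGMP and is present in vascular smooth muscle. WT wells ranged from 0 through a median of 0.266 CPM to a highest well at 8.98 on the log2(CPM + 1) scale, and Reninnull wells from 0 through 1.84 CPM to 12.55 on that scale. Most wells of either genotype were low, and the highest values were in Reninnull wells. The sum was 79.6 CPM in WT and 342 CPM in Reninnull cells, a log2 ratio of 2.10 (2.08 to 2.13). YFP1 alone gave 2.58 and YFP2 alone 1.54, and the ratio was above 1 in each of the 11 alternatives that could change it (1.18 to 2.58).

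At least 10 CPM of *Pde1a* was found in 10 WT (19.6%, 9.82% to 33.1%) and 33 Reninnull wells (34.4%, 25% to 44.8%). Among the better wells the shares were near equal, at 40% (6 of 15) and 40.4% (23 of 57), but the latter joins 28.6% in YFP1 (8 of 28) and 51.7% in YFP2 (15 of 29), on either side of WT. In YFP1 a single well held 55.1% of the *Pde1a* counts and 3 wells held 97.3%. That well, the richest of all (6000.3 CPM), was also high in pericyte and mesangial markers, at 8789.8 CPM. *Pde1c* (chromosome 6, 56069804 to 56569103, minus strand), the related gene, had 3 counts in WT and 430 in Reninnull cells, a log2 ratio of 6.15 (4.60 to 8.44) that was 3.40 for YFP1 and 6.93 for YFP2, and 90% of the null counts came from 1 well.

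*Pde4a* (chromosome 9, 21165714 to 21213248, plus strand) and *Pde4d* (chromosome 13, 108449948 to 109953461, plus strand) are the other cAMP-specific PDE4 genes of the list. The highest *Pde4a* well reached 22.6 CPM in WT and 2509.6 CPM in Reninnull cells, and the sum was 1.03 and 25.7 CPM, a log2 ratio of 4.65 (4.45 to 4.85), or 3.12 for YFP1 and 5.27 for YFP2. The highest *Pde4d* well reached 25.9 CPM in WT and 514 CPM in Reninnull cells, and the sum was 1.63 and 29.7 CPM, a log2 ratio of 4.19 (4.03 to 4.35), or 4.71 for YFP1 and 3.54 for YFP2. Both genes were at 10 CPM or more in 1 WT well (1.96%, 0.0496% to 10.4%) and in 9 Reninnull wells (9.38%, 4.38% to 17.1%). Thus more than 9 in every 10 wells lacked them at this limit in each genotype, and the sums came from few wells: 99% of the WT and 74.4% of the null *Pde4a* counts, and 98.1% and 62.9% of the *Pde4d* counts, were in the richest well. Without the richest well of each genotype, *Pde4a* was at a log2 ratio of 9.35 and *Pde4d* at 8.51, since almost no WT count was left.

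*Pde8a* (chromosome 7, 81213596 to 81334533, plus strand), a cAMP-specific enzyme of high affinity, had 1 count in all WT wells together and 4704 counts (11.8 CPM) in Reninnull cells, which gives 11.19 as the log2 ratio (8.71 to 16.49). That value rests on a single WT count, and it was 0.46 as the difference of mean log2(CPM + 1). In thinned wells it was 3.15, but 0 of 49 WT wells had a count there, so that 3 counts stood in for WT. A count was found in 1 of 51 WT and 20 of 96 Reninnull wells, and 10 CPM or more in 0 WT wells (0%, 0% to 6.98%) and 5 Reninnull wells (5.21%, 1.71% to 11.7%). A YFP1 well held 64.8% of the null counts and was also the well with the most *Pde5a* counts in Reninnull cells.

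*Pde10a* (chromosome 17, 8525372 to 8986648, plus strand), which cleaves both nucleotides and is best known from the striatum, was at a median of 0 CPM in both genotypes, with a highest well of 199.8 CPM in WT and 459.6 CPM in Reninnull cells. The sum was 10.9 and 30.6 CPM, a log2 ratio of 1.49 (1.42 to 1.56), and 0.79 with TMM scaling. A single WT well held 98% of the WT counts, and without the richest well of each genotype the log2 ratio was 6.69. At least 10 CPM was found in 1 WT and 12 Reninnull wells (12.5%, 6.63% to 20.8%).

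*Pde5a* (chromosome 3, 122728947 to 122859374, plus strand), the cGMP-specific enzyme of smooth muscle that sildenafil inhibits, was low. WT wells ranged from 0 through a median of 0 to 48.6 CPM and Reninnull wells from 0 through 0.114 to 276 CPM. The sums were 6.3 and 8.5 CPM, a log2 ratio of 0.43 (0.34 to 0.53), but it was 1.14 in YFP1, -0.66 in YFP2 and -0.27 with TMM scaling, so that no direction can be given. At least 10 CPM was found in 4 WT (7.84%, 2.18% to 18.9%) and 14 Reninnull wells (14.6%, 8.21% to 23.3%). *Pde5a* shares exon bases with *4930447N08Rik* on the opposite strand, and since these libraries do not mark strand, reads in those bases cannot be told apart. No counts are listed for the latter in the tables used here.

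**Figure D3:**
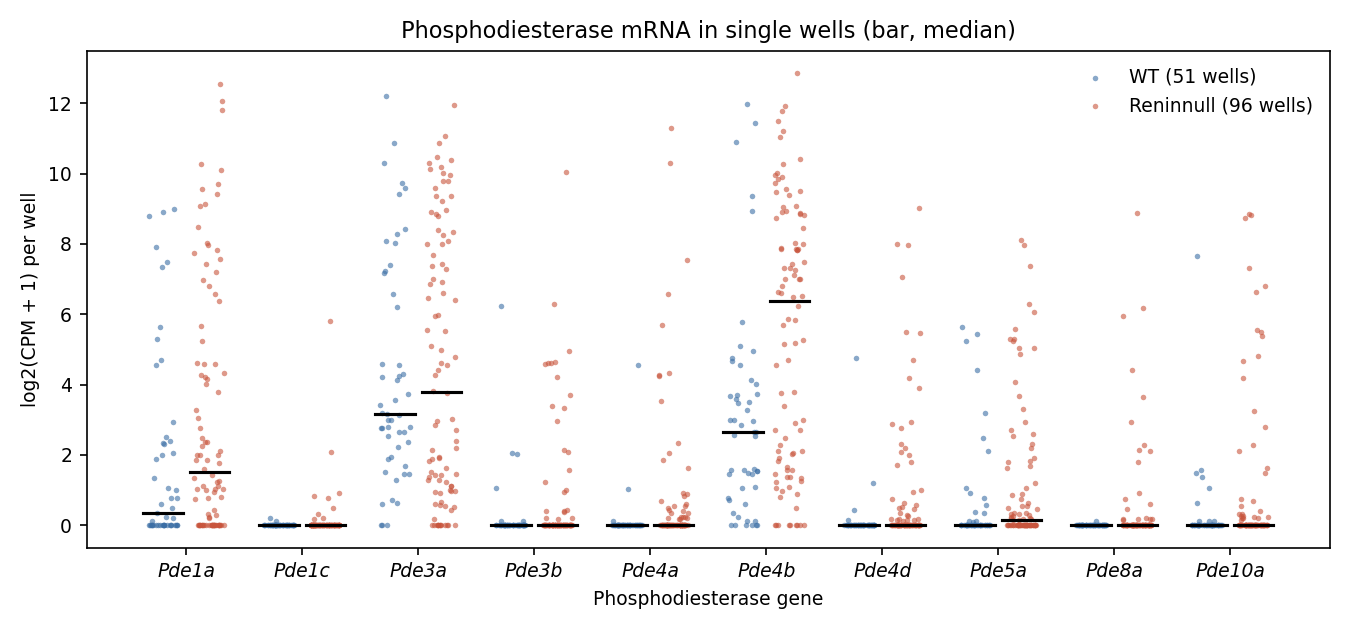
Level of each phosphodiesterase gene in each well, as log2(CPM + 1), in WT (51 wells, blue) and Reninnull cells (96 wells, red), with a bar at the median. *Pde4b*, *Pde3a* and *Pde1a* have medians above 0 in both genotypes, the *Pde4b* median is higher in Reninnull wells (81.9 against 5.24 CPM), and the other genes are near 0 in most wells.

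Per length, the order of summed levels in WT was *Pde4b* (184 CPM per kb), *Pde1a* (32.3), *Pde3a* (30.9), *Pde10a* (3.26), *Pde5a* (0.867), *Pde4d* (0.729), *Pde4a* (0.304), *Pde3b* (0.0377), *Pde1c* (0.00358) and *Pde8a* (0.00133). In Reninnull cells it was *Pde4b* (287), *Pde1a* (139), *Pde3a* (22.3), *Pde4d* (13.3), *Pde10a* (9.16), *Pde4a* (7.6), *Pde8a* (3.1), *Pde3b* (3.07), *Pde5a* (1.17) and *Pde1c* (0.254). The first 3 places were the same in the pooled null wells and in YFP2, but in YFP1 *Pde4d* (19) came before *Pde3a* (13.6). There, 1 well held 96.3% of the *Pde4d* counts. With 1 sample per genotype there is no spread over samples to tell neighbours in either order apart, and their wells overlapped.

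**Figure D4:**
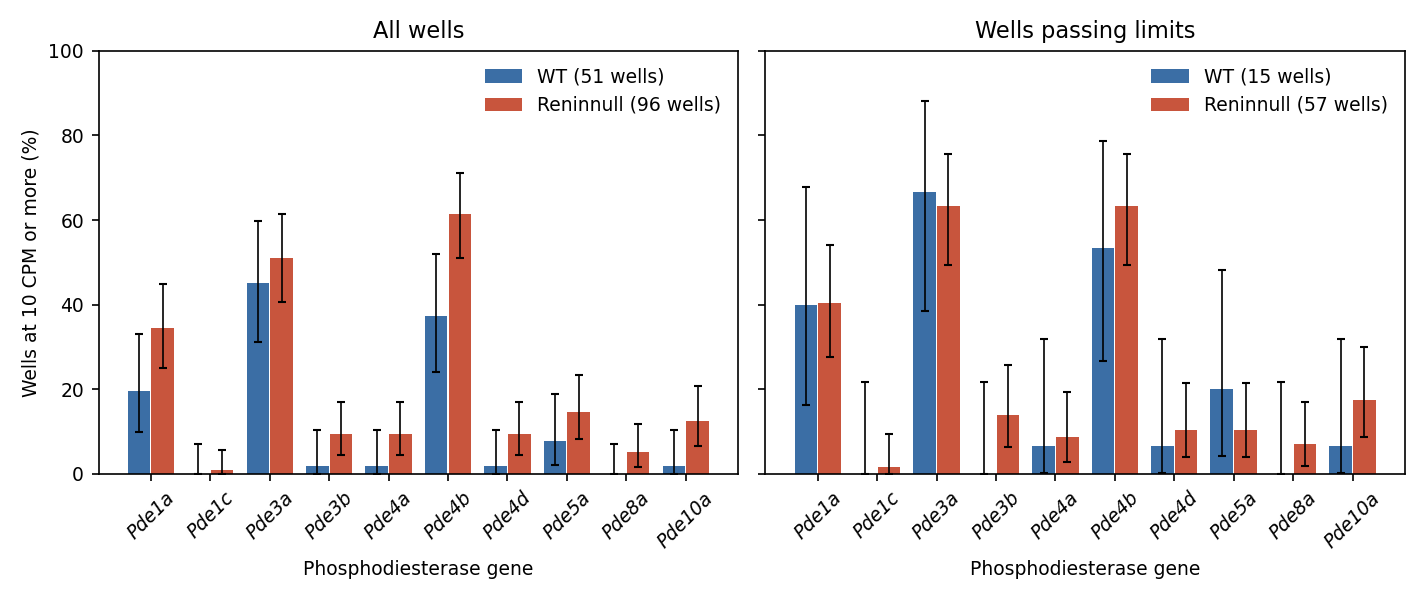
Share of wells at 10 CPM or more for each gene, with exact binomial intervals at a level of 95%, in all wells (left) and in the better wells (right). The *Pde4b* share is 37.3% in WT and 61.5% in Reninnull wells on the left and 53.3% and 63.2% on the right.

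Within single wells the profile was usually led by 1 gene. Of wells with at least 100 counts over the 10 genes (16 WT and 60 Reninnull), *Pde3a* led in 8 WT wells (50%, 24.7% to 75.3%), *Pde4b* in 4 (25%), *Pde1a* in 3 (18.8%) and *Pde10a* in 1 (6.25%). In Reninnull cells *Pde4b* led in 32 (53.3%, 40% to 66.3%), *Pde1a* and *Pde3a* in 11 each (18.3%), *Pde4a* and *Pde10a* in 2 each, and *Pde5a* and *Pde8a* in 1 each. By counts not divided by length, which favour *Pde3a*, the most frequent leader was thus *Pde3a* in WT and *Pde4b* in Reninnull wells. Among the better wells *Pde3a* led in 5 of 13 WT wells and *Pde4b* in 4, whereas *Pde4b* led in 22 of 49 Reninnull wells and *Pde3a* in 11, and with so few WT wells the intervals were wide (13.9% to 68.4% for *Pde3a*).

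The leading gene held a median of 94.4% of a WT well's phosphodiesterase counts and 71.9% of a Reninnull well's, and it held over 90% in 9 of 16 WT (56.2%) and 14 of 60 Reninnull wells (23.3%). In the better wells these medians were 95.6% (13 wells) and 73.7% (49 wells). At least 3 of the genes reached 10 CPM in 6 of 51 WT wells (11.8%) and 32 of 96 Reninnull wells (33.3%), and in 3 of 15 (20%) and 23 of 57 (40.4%) of the better wells. None of them did in 18 WT and 17 Reninnull wells. The highest number in a well was 5 in WT and 7 in Reninnull cells. Thinned to an equal total of 62000 counts, mitochondrial counts included, the mean number of these genes with a count was 1.33 in WT and 2.29 in Reninnull wells (unthinned 3.24 and 5.04), and it was 2.13 and 2.58 in the better wells. Reninnull wells also detected more genes in general, with an unthinned median of 5000 genes against 3528 in WT. No matching number over all genes is given for thinned wells, so these counts do not show a difference particular to phosphodiesterases.

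**Figure D5:**
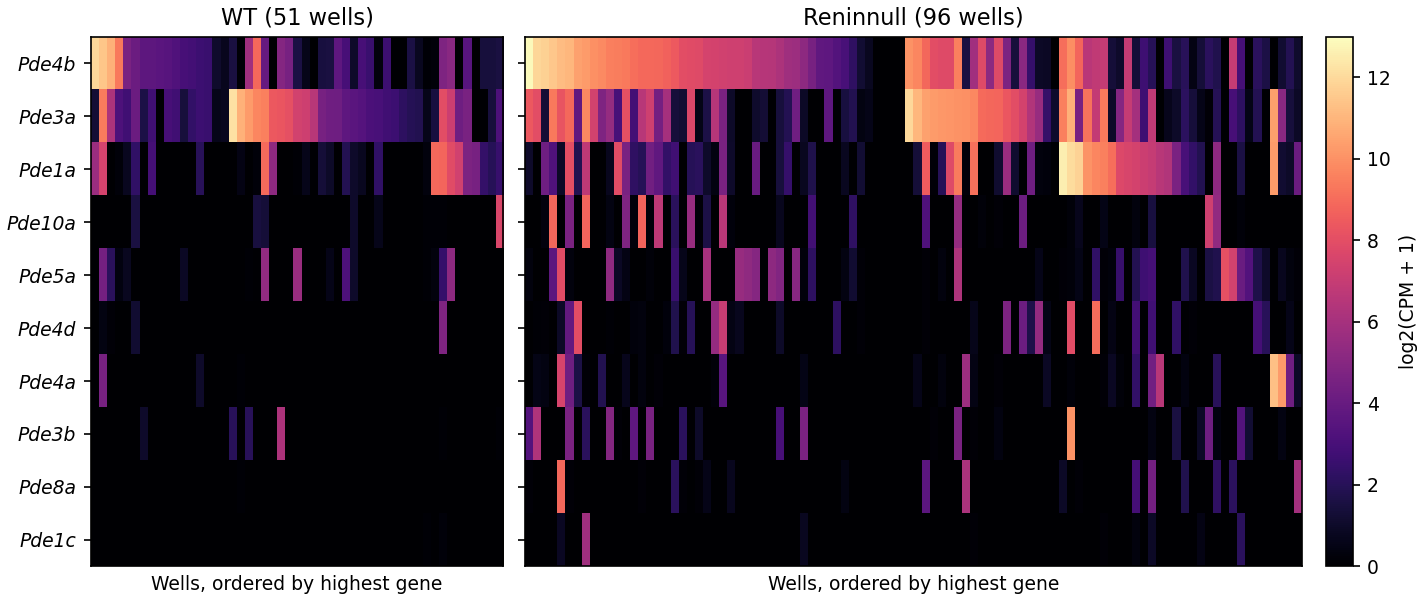
Level of each phosphodiesterase gene (rows) in each well (columns), as log2(CPM + 1) on a colour scale, for WT (51 wells) and Reninnull cells (96 wells), with wells grouped by their highest gene and wells without a count at the end of the *Pde4b* block. Bright blocks of *Pde4b*, *Pde3a* and *Pde1a* form a staircase in both genotypes, and the lower rows hold scattered single wells, more of them in Reninnull cells.

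*Pde3a* and *Pde4b*, both of enzyme families known to degrade cAMP in renin cells, were often in the same well in Reninnull cells and less often in WT. Both reached 10 CPM in 12 of 51 WT wells, *Pde3a* alone in 11, *Pde4b* alone in 7 and neither in 21. In Reninnull cells both did in 40 of 96 wells, *Pde3a* alone in 9, *Pde4b* alone in 19 and neither in 28. Over wells, which share libraries and differ in depth, Spearman's rho of log2(CPM + 1) was 0.27 in WT (51 wells) and 0.53 in Reninnull cells (96 wells). In the better wells it was 0.06 (15 wells) and 0.43 (57 wells). *Pde1a* with *Pde4b* had a rho of 0.01 in WT and 0.19 in Reninnull cells (0.05 in YFP1 and 0.30 in YFP2), and *Pde1a* with *Pde3a* 0.15 in WT and 0.41 in Reninnull cells (0.40 and 0.45). In the better wells *Pde1a* with *Pde4b* had -0.21 in WT and 0.09 in Reninnull cells, and *Pde1a* with *Pde3a* -0.20 and 0.27. All 3 genes reached 10 CPM in 5 WT and 18 Reninnull wells.

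Genes with a count in at least 50% of wells, which were not the same set in each genotype, were ranked by Spearman's rho over wells with each of the 3. The rho of the same pair was not compared between genotypes. The genes most like each of the 3 are given for each genotype. In WT (51 wells, 2470 genes) they were *Nipbl* (0.68), *Psmb2* (0.67) and *Rapgef2* (0.62) for *Pde4b*, *Ubl5*, *Slc25a4* and *Spcs1* (0.66 each) for *Pde3a*, and *Med13* (0.61), *Dipk1a* (0.61) and *Mrps21* (0.60) for *Pde1a*. In Reninnull cells (96 wells, 3334 genes) they were *Zfp36* (0.54), *Pde3a* (0.53) and *Dst* (0.52) for *Pde4b*, *Yap1* (0.59), *Rock1* (0.58) and *Noct* (0.57) for *Pde3a*, and *Stat3* (0.52), *Wdfy1* (0.51) and *Dlg1* (0.51) for *Pde1a*. For *Pde5a*, counted in at least 50% of wells in Reninnull cells alone, *Zdhhc6* (0.50) was among them. The number of genes detected in a well had a rho of 0.31, 0.39 and 0.38 with *Pde4b*, *Pde3a* and *Pde1a* in WT, and of 0.30, 0.27 and 0.41 in Reninnull cells, and that of the mitochondrial share was -0.16, -0.46 and -0.14 in WT and -0.26, -0.34 and -0.42 in Reninnull cells. The part of either in these likenesses was not tested.

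The rest of the phosphodiesterase family had 15 further genes, of which 13 had a ratio. At least 2-fold higher in Reninnull cells were 7, at least 2-fold lower were 2 and 4 lay between, with a median log2 ratio of 1.05. Over all genes 52.4% were higher and 18.5% lower, with a median of 1.17, and these values are the background for each further list. *Pde8b*, the paralog of *Pde8a*, was at 0.207 CPM in WT, all of it in 1 well, and at 90.9 CPM in Reninnull cells, a log2 ratio of 8.78 (8.34 to 9.26). *Pde7b* was at 1.61 and 55 CPM (5.10, 4.94 to 5.26) and *Pde7a* at 0.116 and 13.8 CPM (6.90, 6.31 to 7.55). These are cAMP-specific as well, and few wells reached 10 CPM: 1 WT and 9 null wells for *Pde8b*, 3 and 7 for *Pde7b* and 0 and 5 for *Pde7a*. A single well held 60.4% of the null counts of *Pde7b* and 45% of those of *Pde8b*. *Pde4c* was at 54.2 and 54.8 CPM (0.02), and *Pde12*, whose product removes poly(A) tails in mitochondria rather than cyclic nucleotides, at 20.4 and 9.11 CPM (-1.16, -1.23 to -1.10; -0.87 in YFP1), with 89% of the WT counts in 1 well.

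Upstream of these enzymes, 13 adenylyl cyclase and G protein genes, which make cAMP or control its making, all had a ratio, and 6 were at least 2-fold higher, 2 lower and 5 between (median 0.52, against 1.17 for all genes, of which 52.4% were higher). Ratios of these further lists are without TMM scaling, which lowers each by 0.70 and turns the medians of the cyclase and dissociation response lists negative. *Gnas*, the stimulatory G protein, had 518 CPM in WT and 448 CPM in Reninnull cells. *Gnai2* was at 117 and 119 CPM. *Adcy6*, a calcium-inhibited cyclase of renin cells, had 202 CPM in WT and 41.6 CPM in Reninnull cells, a log2 ratio of -2.28 (-2.31 to -2.25) that was -1.62 for YFP1 and -3.22 for YFP2, and 57.5% of its WT counts were in 1 well. *Adcy4* was at 19 and 5.04 CPM (-1.91), with 91.1% of the WT counts in 1 well, and *Adcy3* was at 1.9 and 19.2 CPM (3.33).

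Of the 18 cAMP effectors 16 had a ratio, and 10 were higher, 1 was lower and 5 lay between (median 1.66, against 1.17 for all genes, of which 52.4% were higher and 18.5% lower). *Crebbp*, a coactivator of CREB, was at 261 and 804 CPM (1.62, 1.61 to 1.64), its relative *Ep300* at 87.9 and 285 CPM (1.70), and *Prkar1a*, a regulatory subunit of protein kinase A, at 285 and 527 CPM (0.89). *Rapgef4*, a guanine nucleotide exchange factor opened by cAMP, was at 94.8 and 376 CPM (1.99), but it reached 10 CPM in 44 of 51 WT and 28 of 96 Reninnull wells, and 1 well held 44.9% of the null counts. *Crtc1* (7.83), *Prkacb* (3.48), *Prkar1b* (2.74), *Prkar2a* (2.20) and *Crem* (1.44) were also past 2-fold higher, although *Prkar1b* (0.42 in YFP2, 72.1% of the null counts in 1 well) and *Crem* (0.77 in YFP1) were not so in each set of null wells. *Creb1* was at 92.2 and 41.6 CPM (-1.15, -1.18 to -1.12), with 72% of its WT counts in 1 well and with -0.85 in YFP1.

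On the cGMP side 13 of 14 genes had a ratio, and 7 were higher, 4 lower and 2 between (median 1.25, but -0.26 in YFP1 alone, beside 52.4% higher and 18.5% lower among all genes). *Mrvi1*, a substrate of the cGMP-dependent kinase at intracellular calcium stores, had 1082 CPM in WT and 179 CPM in Reninnull cells, a log2 ratio of -2.60 (-2.61 to -2.59). *Prkg2*, the cGMP-dependent kinase II that restrains renin release, was at 247 and 16.1 CPM (-3.94, -3.97 to -3.90), and both YFP1 (-4.00) and YFP2 (-3.89) were low. At least 10 CPM of *Prkg2* was found in 16 of 51 WT and 15 of 96 Reninnull wells. *Prkg1* was at 339.7 and 172 CPM (-0.98), but 1 well held 78.8% of its WT counts. It reached 10 CPM in 13 of 51 WT and 28 of 96 Reninnull wells. *Gucy1a1* and *Gucy1b1*, the subunits of soluble guanylyl cyclase, were at 247 and 363 CPM (0.56) and at 75 and 181 CPM (1.27, 0.62 in YFP2). *Npr1*, the natriuretic peptide receptor, was at 82.2 and 36.3 CPM (-1.18, -0.86 in YFP2, 90.1% of the WT counts in 1 well). *Npr3*, the clearance receptor, was at 15.1 and 35.9 CPM (1.25, but -7.17 in YFP1).

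Among 14 genes that anchor or regulate phosphodiesterases, 3 were higher, 2 lower and 9 between (median -0.07, beside 52.4% higher, 18.5% lower and a median of 1.17 among all genes). Calmodulin activates PDE1, and of its genes *Calm2* (1513 and 817 CPM) and *Calm3* (21.5 and 33.9 CPM) did not pass 2-fold. The kinase anchor *Akap13* was at 408 and 1367 CPM (1.75) and *Akap6* at 228 and 108 CPM (-1.08), with -0.11 in YFP1 and -3.35 in YFP2 and with 74.6% and 73.1% of the counts in 1 well. *Abcc5*, a cyclic nucleotide exporter, was at 283 and 149 CPM (-0.93, with -2.68 in YFP1 and -0.26 in YFP2), and 1 well held 72.8% of its WT counts. The exporter *Abcc4* was at 0.97 and 6.03 CPM (2.64, but lower than WT in YFP1 alone). In the list of 10 dissociation response genes, which report on handling of the cells, 1 was higher (*Hspa1a*, 1.25, but -0.39 in YFP1), 1 was lower (*Ier2*, -1.25) and 8 lay between, with a median of 0.04 (1.17 for all genes) and *Fos*, *Egr1*, *Fosb* and *Atf3* as its most abundant genes (3043 and 3838, 2701 and 1841, 885 and 1031, and 682 and 1217 CPM).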

How the data were processed

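Single YFP-positive kidney cells were measured by C1 SMART-Seq v4, as 51 WT and 96 Reninnull wells. The values are expected counts for 35438 genes per well that the authors deposited without normalization for depth. The submitters' processing notes name FastQC 0.11.5, Trimmomatic 0.39, Salmon 0.11.2 and the builds GRCm38.p6 and mm10, and the methods name tximport with lengthScaledTPM, which rescales counts by transcript length. If this was run separately for each genotype, lengths could differ between the tables. The lengths are not given in the sources used here. No rows lacked a gene name.

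Expected counts were rounded, summed over the wells of a genotype and scaled to CPM (Python 3.11.15, numpy 2.4.6, pandas 2.3.3, scipy 1.17.1, matplotlib 3.10.9). Where 1 genotype had no count, 3 counts over its wells stood in as the floor, and genes at or under it in both got no ratio. Intervals are exact Poisson, exact conditional for ratios and Clopper-Pearson for shares. They leave out all error but that of counting, and reads copied by PCR, with no molecular identifier, are not independent. TMM factors came from edgeR 4.0.16 (R 4.3.3), which ran no test here. The ratio step was tested on simulated data. Levels per length used the mean length of coding transcripts in the GRCm38 annotation. No doublet caller was run, and wells had been inspected by eye according to the methods.

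Named were the 10 genes and, of each further list (other phosphodiesterases, adenylyl cyclases and G proteins, cAMP effectors, cGMP synthesis and effectors, anchors and regulators, efflux, dissociation response), the 3 with the largest summed CPM and those past 2-fold with at least 10 CPM in the higher genotype, plus, for genes with a count in at least 50% of wells, the 3 most like them (rho of at least 0.4). *Calm3* was chosen after its values were seen. The genes and lists were chosen with earlier results of these data known. Some genes that the rule names are not reported here.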

Additional observations from a re-analysis of the deposited data

How the results depend on the processing

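Of 109 pairs of a gene and an alternative that could change its ratio, 104 kept the sign of the log2 ratio, and for the 7 genes at least 2-fold higher 76 of 76 kept it and 69 of 76 stayed past 2-fold. The 7 genes were picked by these same counts and each alternative reuses the same wells, so these pairs are a description and no support. The matching shares of pairs over all genes were not counted. The number of genes at least 2-fold higher fell to 2 (9.03% of all genes) with the difference of mean log2(CPM + 1) over wells. It was 9 for the mean over wells of CPM and 8, of 9 genes with a ratio, in thinned wells. The share of all genes was not counted for these 2 settings, where the median log2 ratio of all genes was 1.75 and 1.35. The number at least 2-fold lower was 1 with TMM factors and 1 in YFP1 alone, both times *Pde3a*. The median log2 ratio was 2.44 with TMM factors, 2.77 for the mean over wells of CPM, 0.62 for mean log2(CPM + 1), 2.38 in wells thinned to 62000 counts, 2.85 in YFP1, 2.54 in YFP2, 5.40 without the highest well of each gene, 3.21 with near-identical wells counted once, 2.92 in the better wells, 2.95 without mitochondrial counts, 3.09 without wells of other cell types and 2.10 for genes with a count in 20% of the wells of a genotype. The matching medians of all genes ran from 0.13 to 1.89. The 20% filter kept *Pde3b*, *Pde4a*, *Pde4d*, *Pde8a* and *Pde10a* through Reninnull wells alone, so its median is no check on them. The leading gene of WT became *Pde3a*, at 48.5%, for the mean over wells of CPM and also, at 48.5%, in thinned wells. *Pde4b* led WT at 46.3% without the highest wells, 50.1% in the better wells and 72.9% per length. It led Reninnull cells in each alternative, at 40.8% for the mean over wells, 43.6% thinned, 46.6% in YFP1, 48.6% in YFP2, 50.5% without the highest wells, 48.1% with near-identical wells counted once, 47.8% in the better wells, 50.4% without wells of other cell types and 59.1% per length. No paired analysis was possible because each genotype is 1 sample and the well numbers come from accession order. Genes that rest on 1 well, the many WT wells of high mitochondrial share and the low WT counts of the rarer genes limit each ratio, and the causes were not tested.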
